A study of Mus musculus with 9 samples.

Results

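Proteins of the Bcl2 family control whether mitochondria release cytochrome c and commit a cell to apoptosis. The genes described are 10 of its best known members, taken as the rows of the deposited expression table that carry their symbols; all 10 were found among 29237 genes. They comprise the pro-survival genes Bcl2, Bcl2l1 (Bcl-xL) and Mcl1, the effectors Bax and Bak1, and the BH3-only genes Bid, Bad, Bcl2l11 (Bim), Bbc3 (Puma) and Pmaip1 (Noxa). Messenger RNA was sequenced from heart tissue of wild-type C57BL/6 mice aged 8 to 12 weeks, in 3 groups of 3 libraries. The groups are control, called normal in the series' design text, DOX, a doxorubicin model of dilated cardiomyopathy, and TPTN, a treatment whose abbreviation is not spelled out. No dose, route or day is given, and it is not stated if TPTN mice were given doxorubicin too. Nothing says that replicates are separate animals, so a p-value here reflects the spread among these libraries, which may be technical.

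Pro-survival proteins hold Bax and Bak in check by binding them or the BH3-only proteins. BH3-only proteins carry stress signals, and once they occupy the pro-survival proteins or engage Bax and Bak directly, the effectors open the outer mitochondrial membrane. Loss of Mcl1 from heart muscle is known to cause cardiomyopathy. Doxorubicin, an anthracycline used against cancer, damages DNA and mitochondria, and DNA damage activates p53, a transcription factor that can raise Bax, Bbc3 and Pmaip1. FOXO transcription factors such as Foxo3 can raise Bcl2l11 and Bbc3.

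Values are FPKM, a read density corrected for transcript length and library size, which allows levels of different genes to be compared. Mitochondrial transcripts took 49.8 to 50.9% of the FPKM sum in control, 44.7 to 46.2% in DOX and 48.1 to 48.7% in TPTN, so this share differed between the groups without overlap, and its part in the results was not tested beyond the scalings that leave those transcripts out. The 8 ventricular muscle markers were abundant throughout, at a summed 11869 to 13171 FPKM in control, 13207 to 14987 in DOX and 13312 to 13844 in TPTN, with every control sum below the others. The single markers did not move alike. Tnni3, Myl2, Actc1 and Myl3 averaged lowest in control, Ttn and Pln averaged highest there, and the control means of Myh6 and Tnnt2 lay between those of DOX and TPTN. The part of these markers in the results was not tested. The library DOX replicate 1 stood apart: its 6 atrial muscle markers summed to 2554 FPKM, against 52.2 to 290 in the other 8 libraries. Nppa, at 51.2 to 288 FPKM, made up nearly all of the sum in those 8. Myl4, Myl7, Sln, Bmp10 and Dkk3 were each at 0.889 FPKM or less there, and at 43.5 to 539 FPKM in DOX replicate 1. Small noncoding RNA was high in TPTN replicate 1 and control replicate 3 (931 and 644 FPKM, against 127 to 436 in the others). Calls of named genes are given with the fits that leave out single libraries. The fit without these libraries together is given beside Bcl2l1, and for other calls in the closing section.

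Bcl2l1 had the smallest p of the family, and the sequence before its start is shown with those of Bax and Bcl2l11, textbook targets of p53 and FOXO factors. Each line gives the 250 bases before an annotated start, 5′ to 3′ on the gene's strand, from RefSeq on GRCm38.p6. Capitals mark a match, on either strand, to the p53 decamer, the FOXO motif GTAAACA, the glucocorticoid receptor core ACANNNTGT or the STAT motif TTCNNNGAA, and no 2 matches overlap in the lines shown.
Bcl2l1, chr2:152831729-152831978, minus strand: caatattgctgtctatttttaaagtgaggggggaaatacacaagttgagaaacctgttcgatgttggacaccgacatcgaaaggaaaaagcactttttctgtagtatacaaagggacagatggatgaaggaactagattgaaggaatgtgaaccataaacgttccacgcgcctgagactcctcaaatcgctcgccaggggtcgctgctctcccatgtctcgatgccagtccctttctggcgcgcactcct
Bax, chr7:45466899-45467148, minus strand: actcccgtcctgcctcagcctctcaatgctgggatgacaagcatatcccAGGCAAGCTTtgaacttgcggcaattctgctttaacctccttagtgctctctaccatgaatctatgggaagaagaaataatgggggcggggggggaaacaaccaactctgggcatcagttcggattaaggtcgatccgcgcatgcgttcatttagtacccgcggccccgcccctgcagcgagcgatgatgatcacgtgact
Bcl2l11, chr2:128125788-128126037, plus strand: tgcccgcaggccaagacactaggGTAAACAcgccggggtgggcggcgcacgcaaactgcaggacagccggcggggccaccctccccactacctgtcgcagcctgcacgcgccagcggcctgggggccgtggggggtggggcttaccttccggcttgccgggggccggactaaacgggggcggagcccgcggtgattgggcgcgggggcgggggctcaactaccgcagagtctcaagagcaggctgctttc
The Bcl2l1 window held 0 matches, the Bax window a p53 decamer (AGGCAAGCTT) from 201 to 192 bases before the start, and the Bcl2l11 window a FOXO motif from 227 to 221 bases before it. Of 32851 such windows in the promoter table, 7.13% held the p53 decamer, 3.17% the FOXO motif, 5.84% the glucocorticoid receptor core and 7.02% the STAT motif. Windows of 9 members, 15 in all, were searched, and Pmaip1 is not reported here. Among the windows not printed, the glucocorticoid receptor core occurred before a downstream start of Bcl2l1 (ACAGACTGT, 154 to 146 bases before it) and the FOXO motif before a Bbc3 start (TGTTTAC, 167 to 161 bases before it). A match is a run of letters and not a binding site.

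Mcl1, which encodes a short-lived pro-survival protein, had the most abundant transcript of the 10 members at 39.3 FPKM over the 9 libraries, above 97.7% of all genes in the table. Its lowest library (33.8 FPKM) lay above the highest of any other member. Next came Bax at 6.43, Bak1 at 5.98 and Bcl2l1 at 5.76 FPKM, whose ranges overlapped and whose order differed between groups. Bad followed at 3.96 FPKM, and its range of 3.04 to 4.89 overlapped the lower values of Bcl2l1. Bcl2l11 at 1.08 and Bbc3 at 0.769 FPKM also overlapped each other. Bcl2 at 0.444, Bid at 0.224 and Pmaip1 at 0.0558 FPKM lay below the minimum mean of 0.5 FPKM set for testing, which left 7 members tested. Among the 10, Mcl1 supplied 82.5 to 89.6% of the summed pro-survival FPKM in each library, and Bad 59.8 to 69.2% of the BH3-only sum. The pro-survival and BH3-only sums given here leave out relatives outside the 10, such as Bcl2l2 (8.53 FPKM) and Bik (1.58 FPKM). In tissue, fewer cells of a type and less RNA per cell cannot be told apart.

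**Figure D1:**
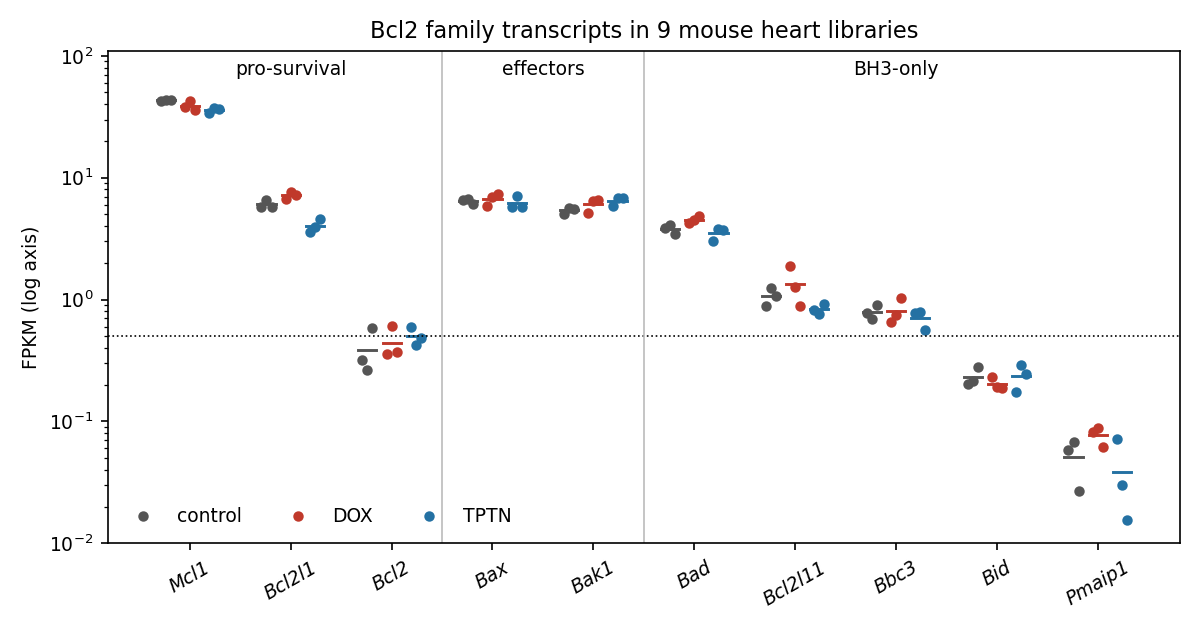
FPKM (log axis) of the 10 members in each of the 9 libraries, 3 points per group with a bar at the group mean, ordered by role; the dotted line is the 0.5 FPKM minimum for testing. Mcl1 lies above every other member, and the TPTN points of Bcl2l1 (3.58 to 4.57 FPKM) lie below its control and DOX points.

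Bcl2l1 (ENSMUSG00000007659, chromosome 2, 152780668 to 152831728) was lower in TPTN than in both other groups. The control libraries held 5.77, 6.58 and 5.74 FPKM, those of DOX 6.73, 7.66 and 7.23, and those of TPTN 3.58, 3.93 and 4.57. The 3 groups did not overlap, with every DOX library above every control library and every TPTN library below. From DOX to TPTN the mean fell from 7.21 ± 0.467 to 4.03 ± 0.505 FPKM (SD, n = 3 each), a level 1.79-fold higher in DOX. The log2 change of FPKM + 1 was -0.71 (SE 0.089, 95% interval -0.91 to -0.51, limma adjusted p = 0.00850), the 12th smallest p of 12500 genes. The added 1 means that changes of genes with low FPKM are understated. The gene yields Bcl-xL and, by another splice choice, the pro-apoptotic Bcl-xS, and its 9 listed transcripts share a single FPKM value, so these forms are not separated.

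The fall from DOX to TPTN passed the limma threshold in each of the 9 fits that left out 1 library (log2 change -0.79 to -0.64, adjusted p 0.00775 to 0.0391), among them the fit without DOX replicate 1 (-0.75, adjusted p = 0.0164). It did not pass with no filter on low values (adjusted p = 0.0924) or without DOX replicate 1, control replicate 3 and TPTN replicate 1 together (-0.69, adjusted p = 0.0860). In that last fit limma called 0 genes of 12399 in this comparison, with 2505 at an unadjusted p under 0.05.

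Against control, Bcl2l1 in TPTN was lower by a smaller amount, at 4.03 ± 0.505 against 6.03 ± 0.476 FPKM (SD, n = 3 each; log2 change -0.49, SE 0.089, interval -0.68 to -0.29, limma adjusted p = 0.0351). That call was lost in 7 of the 9 fits leaving out a library, those without control replicate 2 (0.137), control replicate 3 (0.0871), DOX replicate 2 (0.0519), DOX replicate 3 (0.0606), TPTN replicate 1 (0.110), TPTN replicate 2 (0.125) or TPTN replicate 3 (0.0547), the adjusted p of each in parentheses. The log2 change ran from -0.56 to -0.42 over the 9 fits. It was also lost without the 3 libraries that stand apart (adjusted p = 0.165). DOX stood above control (log2 change 0.22, SE 0.089, interval 0.026 to 0.42), but this did not pass (limma adjusted p = 0.218), and the change was 0.079 (adjusted p = 0.636) with FPKM scaled to the sum that leaves out mitochondrial genes and their nuclear copies. Each of the 3 comparisons shares libraries with the others, so they are not independent.

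**Figure D2:**
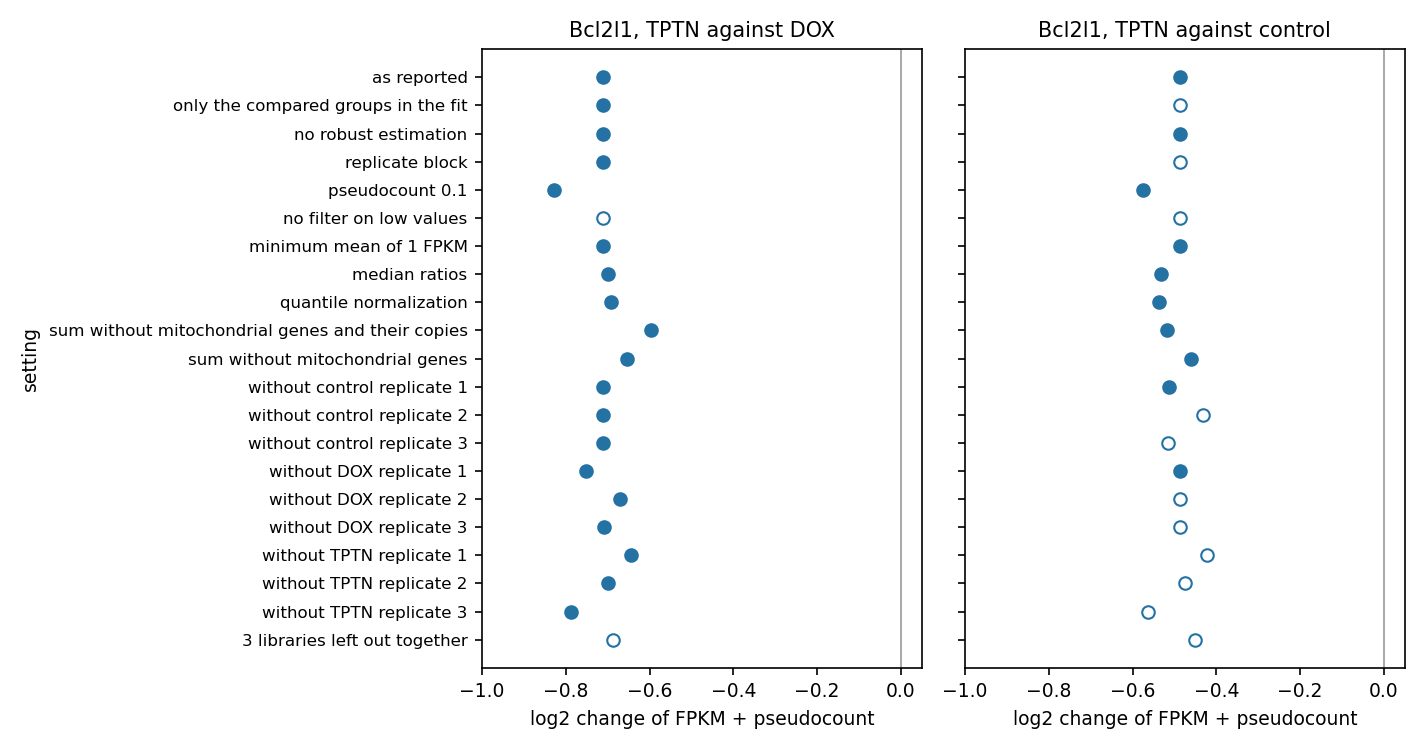
Log2 change of Bcl2l1 in TPTN against DOX (left) and TPTN against control (right) as reported and in 20 other settings; filled points have an adjusted p under 0.05. The value lies between -0.83 and -0.60 against DOX and between -0.58 and -0.42 against control, with filled points in 18 and 9 of the 20 settings.

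In the authors' deposited table Bcl2l1 has a p-value of 1.49e-11 and a q-value of 8.00e-09. The header of the authors' deposited table does not say which groups were compared. Bcl2l11 (p = 0.0143, q = 0.118) and Bad (p = 0.0404, q = 0.215) are also marked yes in the authors' deposited table, as are 2892 of its 29237 genes, and the other 7 members are marked no.

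Markers of red cells, whose precursors also carry Bcl-xL, and of white cells were measured beside Bcl2l1. The 5 erythroid markers, globins and Alas2, summed to 944, 449 and 396 FPKM in the control libraries, 331, 927 and 971 in those of DOX and 603, 542 and 447 in those of TPTN. The lowest sum was in DOX replicate 1. The 5 neutrophil markers summed to 4.70 to 12.1 FPKM in control, 1.31 to 4.01 in DOX and 0.453 to 0.538 in TPTN, highest in control and lowest in TPTN. The 6 macrophage markers summed to 105 to 136 FPKM in control, 102 to 128 in DOX and 98.8 to 116 in TPTN. The 6 lymphocyte markers summed to 0.279 to 0.380, 0.266 to 0.809 and 0.224 to 0.927 FPKM in that order, and both lists overlapped between all groups. In each list 0 markers were at 0 in every library, and their part in the result was not tested.

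Mcl1 (ENSMUSG00000038612, chromosome 3, 95658788 to 95663176) was at 42.5, 43.2 and 43.4 FPKM in control libraries, at 38.0, 42.9 and 35.9 in DOX libraries and at 33.8, 37.5 and 36.4 in TPTN libraries. Every TPTN library lay below every control library, while DOX overlapped both. The difference between TPTN and control did not pass across all genes (35.9 ± 1.87 against 43.0 ± 0.501 FPKM, SD, n = 3 each; log2 change -0.26, SE 0.074, interval -0.42 to -0.091, limma adjusted p = 0.166). The log2 change was -0.14 from control to DOX (adjusted p = 0.347), or -0.28 under quantile normalization (adjusted p = 0.0661), -0.31 when scaled without mitochondrial genes or copies (adjusted p = 0.0554) and -0.089 without DOX replicate 3 (adjusted p = 0.616). From DOX to TPTN it was -0.11 (adjusted p = 0.433), with the sign turned under quantile normalization (0.027) and in the scaling without mitochondrial genes or copies (0.020).

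Bcl2 (ENSMUSG00000057329, chromosome 1, 106538178 to 106714274), the founding pro-survival gene, was scarce. Control libraries had 0.321, 0.264 and 0.579 FPKM, DOX libraries 0.356, 0.603 and 0.371 and TPTN libraries 0.592, 0.423 and 0.484, and all groups overlapped. An antisense gene, D630008O14Rik, overlaps Bcl2, and whether the counting used strand is not given in the sources used here, so low values are uncertain. Summed over the 3 pro-survival genes, FPKM ran from 48.6 to 50.0 in control, from 43.5 to 51.2 in DOX and from 38.0 to 41.8 in TPTN.

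The effectors Bax and Bak1 were at similar levels, and neither passed the threshold in any comparison. Bax (ENSMUSG00000003873, chromosome 7, 45461697 to 45466898), which moves from cytosol to mitochondria when activated, measured 6.50, 6.66 and 6.09 FPKM in the control libraries. DOX libraries measured 5.84, 6.97 and 7.33 and TPTN libraries 5.72, 7.05 and 5.73, so that the groups overlapped throughout. For DOX against control its log2 change was 0.052 (SE 0.10, interval -0.16 to 0.27, limma adjusted p = 0.829), for TPTN against DOX -0.11 (interval -0.32 to 0.11, adjusted p = 0.575) and for TPTN against control -0.054 (interval -0.27 to 0.16, adjusted p = 0.869). The first of these was negative with scaling by median ratios (-0.0034), by quantiles (-0.013) and by the sum that leaves out mitochondrial genes and copies (-0.092), and in this last scaling the second was 0.0094. The predicted gene Gm45808 overlaps Bax on the same strand, so reads of that stretch could belong to either.

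Bak1 (ENSMUSG00000057789, chromosome 17, 27019810 to 27029009), the effector that resides in the mitochondrial membrane, measured 5.04, 5.67 and 5.54 FPKM in the control libraries. The DOX libraries had 5.15, 6.49 and 6.56 and the TPTN libraries 5.89, 6.76 and 6.76. Each TPTN library lay above each control library, without passing across all genes (log2 change 0.22, SE 0.094, interval 0.011 to 0.43, limma adjusted p = 0.354). From control to DOX the change was 0.13 (adjusted p = 0.510), and -0.0074 when scaled without mitochondrial genes or copies. From DOX to TPTN it was 0.084 (adjusted p = 0.658), and -0.013 without DOX replicate 1. Ggnbp1 overlaps Bak1 on the other strand.

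Bad, a BH3-only protein held inactive by survival kinases, had its highest transcript level in DOX. Bad (ENSMUSG00000024959, chromosome 19, 6941861 to 6951899) showed 3.90, 4.13 and 3.44 FPKM for control, 4.23, 4.49 and 4.89 for DOX and 3.04, 3.78 and 3.73 for TPTN. Each DOX library lay above each library of the other groups. Neither difference passed in limma: the log2 change was 0.20 for DOX against control (SE 0.091, interval -0.00050 to 0.40, adjusted p = 0.278) and -0.30 for TPTN against DOX (SE 0.091, interval -0.50 to -0.095, adjusted p = 0.1). Scaled without mitochondrial genes or copies, these values were 0.066 (adjusted p = 0.697) and -0.19 (adjusted p = 0.188). TPTN and control overlapped (-0.10, adjusted p = 0.722). Gpr137 overlaps Bad on the other strand, so the values of Bad, like those of Bak1, are uncertain to the extent that reads could be shared.

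Bcl2l11 encodes Bim, a BH3-only protein that binds all the main pro-survival proteins. Bcl2l11 (ENSMUSG00000027381, chromosome 2, 128126038 to 128162547) showed 0.879, 1.25 and 1.07 FPKM for control, 1.87, 1.27 and 0.890 for DOX and 0.828, 0.767 and 0.911 for TPTN. Its highest value was in DOX replicate 1, the library with atrial markers, and DOX and TPTN overlapped. From DOX to TPTN the log2 change was -0.33 (SE 0.13, limma adjusted p = 0.193), or -0.17 without DOX replicate 1. From control to DOX it was 0.16 (adjusted p = 0.583), or 0.0054 without that library and 0.074 scaled without mitochondrial genes or copies, and from control to TPTN -0.17 (adjusted p = 0.656).

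Bbc3, whose product Puma is a p53-induced BH3-only protein, showed overlapping groups. Bbc3 (ENSMUSG00000002083, chromosome 7, 16308393 to 16318205) had 0.770, 0.690 and 0.909 FPKM for control, 0.659, 0.741 and 1.03 for DOX and 0.772, 0.786 and 0.563 for TPTN. For DOX against control its log2 change was 0.014 (SE 0.10, interval -0.20 to 0.23, limma adjusted p = 0.966), and its sign was negative under all 4 scalings tried. The TPTN comparisons gave -0.082 against DOX (adjusted p = 0.679) and -0.069 against control (adjusted p = 0.832).

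Bid (ENSMUSG00000004446, chromosome 6, 120891930 to 120916853) links death receptors to mitochondria once caspase-8 has cut it. It was at 0.203, 0.216 and 0.279 FPKM for control, 0.232, 0.192 and 0.187 for DOX and 0.174, 0.288 and 0.247 for TPTN, and it overlaps Bcl2l13, a far more abundant gene, on the other strand. Pmaip1 (ENSMUSG00000024521) encodes Noxa, a partner of Mcl1 induced by p53. It was at 0.0155 to 0.0888 FPKM, the lowest of the 10 members. With no filter on low values, the limma adjusted p of Bcl2, Bid and Pmaip1 was 0.488 or above in all 3 comparisons. Values this low rest on few fragments, whose number is not known.

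**Figure D3:**
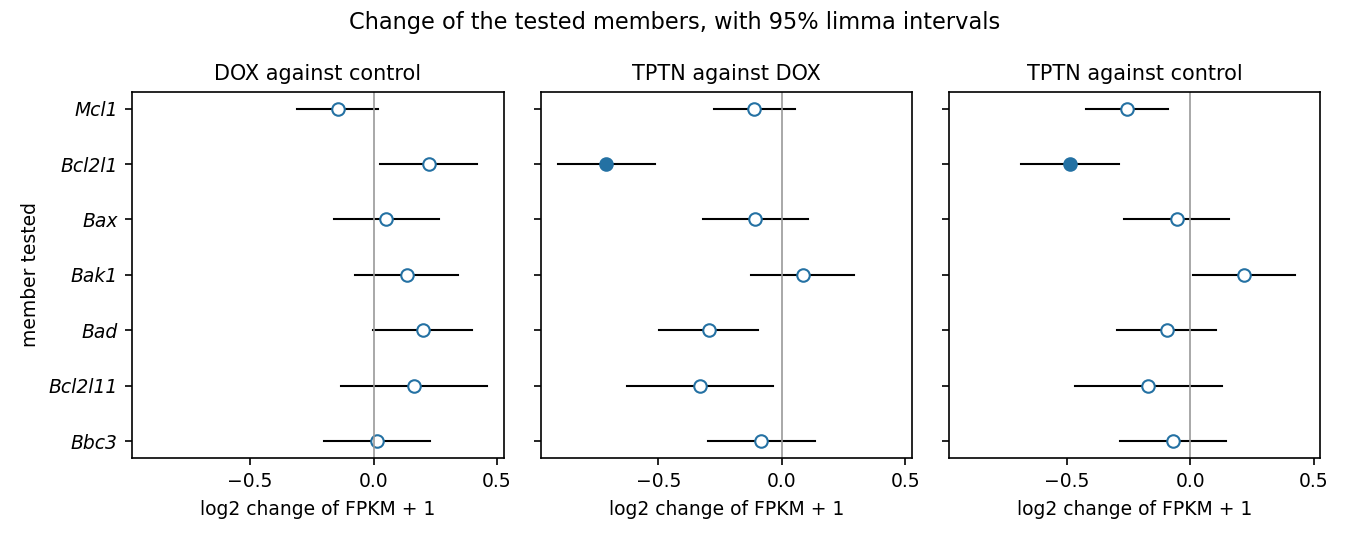
Log2 change of FPKM + 1 for the 7 tested members in each comparison, with 95% limma intervals; filled points have an adjusted p under 0.05. Bcl2l1 is filled in TPTN against DOX (-0.71) and TPTN against control (-0.49), and 0 points are filled in DOX against control.

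Counted over the members, 0 of 7 passed in DOX against control, where limma called 2.63% of 12500 genes (2.23% higher, 0.400% lower). In TPTN against DOX 1 of 7 passed, Bcl2l1, as lower, beside 3.26% of all genes (0.792% higher, 2.46% lower). In TPTN against control 1 of 7 passed, again Bcl2l1 as lower, beside 0.720% of all genes (0.336% higher, 0.384% lower). Groups did not overlap for 2 members in DOX against control, Bcl2l1 and Bad, beside 22.8% of all genes (17.7% higher, 5.10% lower). They did not overlap for that pair in TPTN against DOX either, beside 24.5% (10.4% higher, 14.1% lower). In TPTN against control they did not overlap for 3, Bcl2l1, Mcl1 and Bak1, beside 21.3% (15.2% higher, 6.03% lower). An unadjusted p under 0.05 was reached by 1, 3 and 3 of the 7 in DOX against control, TPTN against DOX and TPTN against control, beside 18%, 20.6% and 13.1% of all genes. The median log2 change of the 7 was 0.13, -0.11 and -0.10 in that order of comparisons, and that of all genes 0.044, -0.0079 and 0.037.

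Ratios between members are often quoted as a measure of apoptotic balance, and here they describe transcripts only. Bax to Bcl2 was 20.2, 25.3 and 10.5 over the control libraries, 16.4, 11.6 and 19.8 over DOX and 9.66, 16.7 and 11.8 over TPTN. The groups overlapped, and the low Bcl2 level makes this ratio imprecise. Bax to Bcl2l1 ran from 1.01 to 1.13 in control, from 0.867 to 1.01 in DOX and from 1.25 to 1.79 in TPTN, so that all TPTN libraries lay above the rest. Mcl1 to Bcl2l1 ran from 6.56 to 7.56 in control, from 4.96 to 5.65 in DOX and from 7.97 to 9.52 in TPTN. Bcl2l1 made up 11.5 to 13.2% of the pro-survival sum in control, 14.9 to 16.6% in DOX and 9.41 to 11.02% in TPTN. The effector sum, Bax plus Bak1, overlapped between all groups, at 11.5 to 12.3 FPKM in control, 10.99 to 13.9 in DOX and 11.6 to 13.8 in TPTN. The BH3-only sum was 5.72 to 6.35 FPKM in control, 6.78 to 7.07 in DOX and 4.88 to 5.66 in TPTN, with DOX above both other groups. Both ratios over Bcl2l1 share that gene, which was lower in TPTN, so they are not independent of its fall. No test was made of the ratios, shares and sums, which were formed with the levels known.

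**Figure D4:**
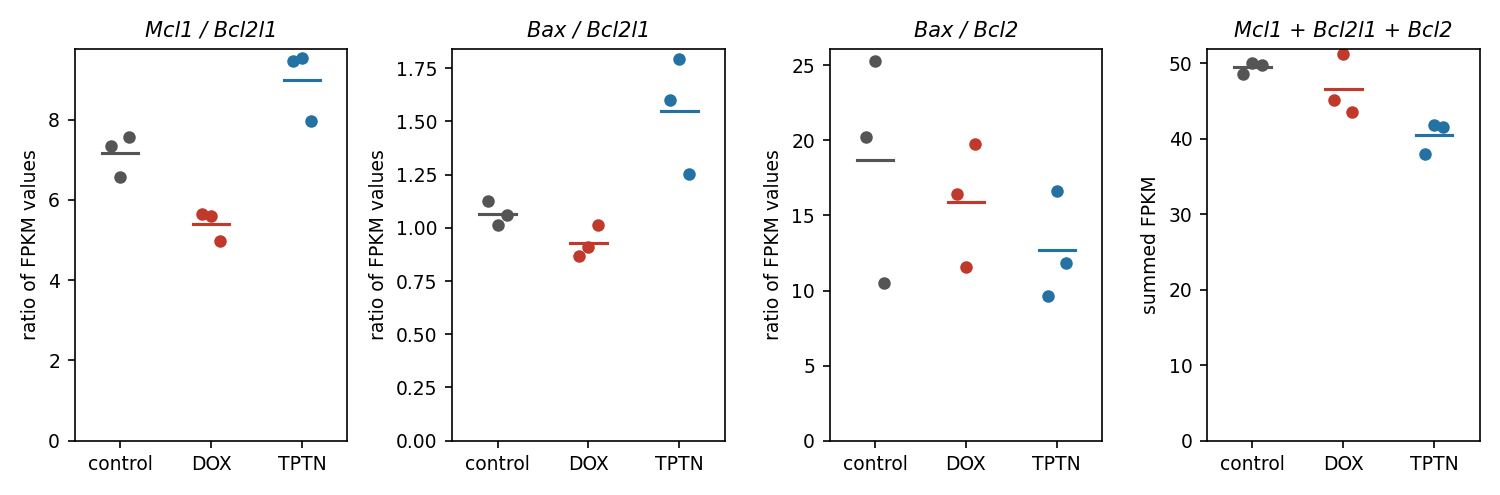
Ratios of FPKM values (Mcl1 to Bcl2l1, Bax to Bcl2l1, Bax to Bcl2) and the summed FPKM of Mcl1, Bcl2l1 and Bcl2, 3 libraries per group with a bar at the mean. The 2 ratios over Bcl2l1 separate TPTN from the other groups, and both share Bcl2l1, which was itself lower in TPTN. Bax to Bcl2 does not separate TPTN, and the TPTN sums (38.0 to 41.8 FPKM) lie below all others.

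Other genes of the apoptosis pathway were taken from lists and are described by counts. Of 18 further Bcl2 relatives, 11 were tested and 0 passed in limma in any comparison, with 1, 3 and 2 at an unadjusted p under 0.05 in DOX against control, TPTN against DOX and TPTN against control. Beside these and the like counts for the other lists, 18%, 20.6% and 13.1% of all genes were at that level. Bcl2l2 (Bcl-w), another pro-survival gene, averaged 8.53 FPKM, more than Bcl2l1. Bnip3, a mitochondrial protein tied to mitophagy, had the smallest p in the TPTN comparisons. Its control libraries had 62.5, 78.9 and 76.2 FPKM, its DOX libraries 55.2, 63.6 and 69.8 and its TPTN libraries 40.9, 47.7 and 52.8, with TPTN below all others. The log2 change was -0.61 against control (limma adjusted p = 0.0537) and -0.41 against DOX (adjusted p = 0.0940). The first passed in 5 of 20 other settings, with a limma adjusted p of up to 0.287 over the 20. Among the 5 were the fits without control replicate 1 (adjusted p = 0.0279) and without DOX replicate 1 (0.0443). A minimum mean of 1 FPKM (0.0414) and scaling without mitochondrial genes or copies (0.0347) were also among them. The second passed in 1 of 20, with an adjusted p of up to 0.311. Bik, a BH3-only gene, had the smallest p in DOX against control (log2 change 0.27, adjusted p = 0.229).

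Among 13 tested genes of mitochondrial release and the apoptosome, which act beside or downstream of Bax and Bak, Vdac2, an outer membrane channel that binds Bak, rose from 54.1 ± 0.645 to 65.1 ± 3.28 FPKM in DOX (SD, n = 3 each; log2 change 0.26, limma adjusted p = 0.0452). That call was lost in 16 of 20 other settings, and scaling without mitochondrial genes or copies gave 0.10. Of the 9 fits leaving out a library, it passed only in the one without DOX replicate 1 (adjusted p = 0.0480), with the highest adjusted p (0.151) without DOX replicate 2. In the TPTN comparisons 0 of 13 passed in limma, with 3 and 0 at an unadjusted p under 0.05. Opa1, which shapes the inner membrane, had the smallest p in TPTN against DOX (log2 change 0.18, limma adjusted p = 0.141). It passed in 2 of 20 other settings, with an adjusted p of up to 0.336 over the 20. The 2 were quantile normalization (0.26, adjusted p = 0.0409) and scaling without mitochondrial genes or copies (0.30, adjusted p = 0.0319). Cycs, which encodes cytochrome c, averaged 138 FPKM.

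Of 9 caspases 8 were tested and 0 passed in limma in any comparison, with 0, 1 and 0 at an unadjusted p under 0.05. The initiator Casp9 averaged 1.74 FPKM. Casp8, the initiator that cuts Bid, had the smallest p of the caspases in each comparison. Its control libraries had 1.13, 0.630 and 0.893 FPKM, its DOX libraries 0.655, 0.586 and 0.692 and its TPTN libraries 1.02, 1.05 and 1.06. TPTN lay above DOX without overlap (log2 change 0.32, limma adjusted p = 0.0977), while 24.5% of all genes did not overlap in this comparison. Casp8 passed here in 1 of 19 other settings, scaling without mitochondrial genes or copies (0.37, adjusted p = 0.0469). Over the 19 the adjusted p went up to 0.282. Of 7 inhibitors of apoptosis proteins 4 were tested, and in limma 0 passed in any comparison and 0 had an unadjusted p under 0.05. The smallest p among them was that of Birc3 in DOX against control (log2 change -0.16, adjusted p = 0.393) and in TPTN against DOX (0.17, adjusted p = 0.323), and of Birc6 in TPTN against control (0.059, adjusted p = 0.822).

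In TPTN against DOX, 6 of the 10 tested death receptor and adaptor genes had a positive change. Their median was 0.14, beside -0.0079 for all genes. In TPTN against control it was 8 of 10, with a median of 0.11, beside 0.037 for all genes. An unadjusted limma p under 0.05 was reached by 5 and 2 of them, and by 1 in DOX against control. Fas, a receptor that starts caspase-8 activation, was lower in TPTN. Its control libraries had 6.18, 6.21 and 5.04 FPKM, its DOX libraries 5.38, 5.13 and 5.23 and its TPTN libraries 3.13, 3.80 and 3.51. All TPTN libraries lay below all others, and the fall passed against DOX (log2 change -0.48, limma adjusted p = 0.0239) and against control (-0.60, adjusted p = 0.0161). The call against DOX was lost, by adjusted p, without DOX replicate 2 (0.0624), DOX replicate 3 (0.0666), TPTN replicate 1 (0.0855) or TPTN replicate 3 (0.0695). The call against control was lost without control replicate 2 (0.0541), TPTN replicate 1 (0.0541) or TPTN replicate 3 (0.0624). Tnfrsf1a, a receptor for tumour necrosis factor, had the smallest p in DOX against control (log2 change 0.20, adjusted p = 0.214).

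Of 12 tested transcription factors known to act on members, Foxo3 passed in TPTN against DOX, and 0 passed in limma in the other comparisons, with 1 and 4 at an unadjusted p under 0.05. In TPTN against DOX 2 were at that level, and 10 of the 12 had a positive change. Their median was 0.080, beside -0.0079 for all genes. The Foxo3 control libraries had 7.04, 8.12 and 8.01 FPKM, the DOX libraries 9.24, 8.83 and 8.08 and the TPTN libraries 6.88, 6.11 and 6.60, with every TPTN library below all others (log2 change -0.37, limma adjusted p = 0.0352). The call was lost in 7 of 9 fits leaving out a library, by adjusted p without control replicate 3 (0.0572), DOX replicate 1 (0.0608), DOX replicate 2 (0.106), DOX replicate 3 (0.0649), TPTN replicate 1 (0.0855), TPTN replicate 2 (0.0890) or TPTN replicate 3 (0.0917), and under 3 of 4 scalings. The p53 gene Trp53 had the smallest p in TPTN against control (log2 change 0.40, limma adjusted p = 0.0934). It passed in 1 of 20 other settings, without control replicate 1 (adjusted p = 0.0307), and its adjusted p went up to 0.335. Atf3, a stress-induced factor, had the smallest p in DOX against control (0.93, limma adjusted p = 0.107). It passed in 2 of 20 other settings, among them without control replicate 1 (1.23, adjusted p = 0.0166), and its adjusted p went up to 0.416.

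Of 18 tested genes that act on the member proteins, 14 had a positive change in TPTN against DOX and 17 in TPTN against control. Their median log2 change was 0.092 and 0.12 in that order, beside -0.0079 and 0.037 for all genes. An unadjusted limma p under 0.05 was reached by 2 and 5 of the 18. Pim3, a survival kinase that phosphorylates Bad, passed as lower in both TPTN comparisons. Its control libraries had 16.5, 21.8 and 19.5 FPKM, its DOX libraries 22.4, 20.4 and 17.7 and its TPTN libraries 9.68, 11.6 and 11.9, with TPTN below all others. The log2 change was -0.81 against DOX (limma adjusted p = 0.0140) and -0.74 against control (adjusted p = 0.0210). The call against DOX held in 9 of 9 fits leaving out a library, and that against control was lost in 5, by adjusted p without control replicate 2 (0.0673), control replicate 3 (0.0755), TPTN replicate 1 (0.0741), TPTN replicate 2 (0.0684) or TPTN replicate 3 (0.0624). The call against DOX was lost, by adjusted p, with no filter on low values (0.115) and with 3 libraries left out together (0.107). In DOX against control 0 of 18 passed in limma, with 2 at an unadjusted p under 0.05, and Akt2, another survival kinase, had the smallest p (log2 change 0.24, adjusted p = 0.0796).

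Of 9 tested p53-responsive genes, kept as a check since Bax, Bbc3 and Pmaip1 are p53 targets too, 1 rose in DOX against control. This was Phlda3, an inhibitor of Akt, at 4.46, 3.82 and 3.72 FPKM in control libraries, 6.44, 6.90 and 6.14 in DOX libraries and 5.25, 4.85 and 5.45 in TPTN libraries (log2 change 0.58, limma adjusted p = 0.0150). The call was lost, by adjusted p, without control replicate 2 (0.0579), control replicate 3 (0.0555) or DOX replicate 2 (0.0584). The median log2 change of the 9 was 0.00062, beside 0.044 for all genes. In TPTN against DOX the median of the 9 was 0.049, beside -0.0079 for all genes, and in TPTN against control 0.16, beside 0.037. The change was positive for 6 of the 9 in each TPTN comparison. An unadjusted limma p under 0.05 was reached by 4 and 5 of the 9, beside 20.6% and 13.1% of all genes. In each TPTN comparison 1 of 9 passed, the cell cycle inhibitor gene Cdkn1a, as lower. Its control libraries had 18.3, 12.0 and 12.5 FPKM, its DOX libraries 13.9, 15.1 and 10.5 and its TPTN libraries 5.57, 5.98 and 6.89, with log2 changes of -0.98 against DOX (adjusted p = 0.0254) and -1.08 against control (adjusted p = 0.0285). The Cdkn1a call against DOX was lost, by adjusted p, without DOX replicate 2 (0.0741), TPTN replicate 1 (0.0893), TPTN replicate 2 (0.0677) or TPTN replicate 3 (0.0640), and that against control without control replicate 2 (0.0541), control replicate 3 (0.0654), TPTN replicate 1 (0.0946), TPTN replicate 2 (0.106) or TPTN replicate 3 (0.0690).

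**Figure D5:**
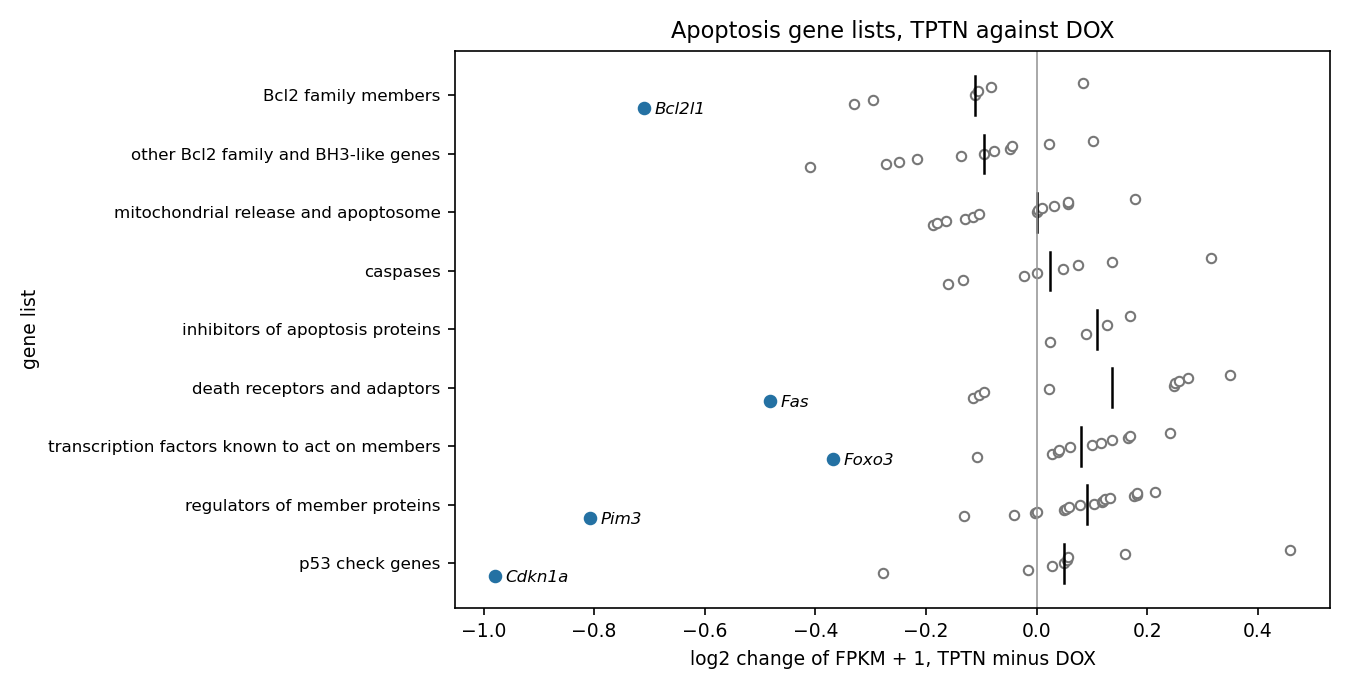
Log2 change of FPKM + 1 in TPTN against DOX for every tested gene of the 9 lists, 1 point a gene, with a bar at each list's median; filled and named points have an adjusted p under 0.05. Bcl2l1, Fas, Foxo3, Pim3 and Cdkn1a are filled, all to the left of 0, while the medians lie between -0.11 and 0.14.

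The genes whose pattern over the 9 libraries was most like that of Bcl2l1 were sought among 4139 named genes with a mean of at least 5 FPKM. By the Pearson correlation of log2(FPKM + 1), given as a description, they included the haem oxygenase gene Hmox2 (0.96) and Lrg1, which encodes a secreted glycoprotein (0.96). Lrg1 averaged 23.0 FPKM in control, 24.1 in DOX and 12.4 in TPTN. For Mcl1 the likest were Twnk (0.94), Rab7 (0.91) and Rmdn1 (0.90), and for Bad they were Parl (0.99), Fcgrt (0.95) and Apobec2 (0.95). The 9 points share their groups and scaling, and these genes are the top of a long search.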

How the data were processed

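The deposited table gives FPKM values per gene and library, calculated by the authors. Per the submitters' processing notes, cutadapt 1.9, HISAT2 2.0.4, StringTie 1.3.4d and GRCm38 were used, and DESeq2 and edgeR are named without a role. The table also carries a p-value and a q-value per gene, computed by the authors for groups the header does not name. Read depth is not known: only 10.8 to 14.6% of low values, over 15203 genes with a single transcript, were whole multiples of the most frequent step within 0.05, so no count test was made. Of the 29237 genes, 29154 were found in GENCODE M21, which gave the positions.

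With limma 3.58.1 (R 4.3.3 and the data.table package, 1.17.8), log2(FPKM + 1) of all 9 libraries was fitted with a mean per group and empirical Bayes with trend and robust estimation, over 12500 genes with a mean of at least 0.5 FPKM. Tests were of either direction, with Benjamini-Hochberg adjustment over all genes and a threshold of 0.05. The procedure was run on simulated data drawn with the spread of the same fit and with means of at least 1 FPKM. That run does not show how the procedure performs on genes of lower FPKM, such as Bbc3. The members and gene lists were chosen with earlier results of these data known. Genes named beyond the members are those of each list past the threshold (up to 4 per comparison), otherwise the one with the smallest p, and, for the 3 members with the smallest p, the 3 genes of likest pattern, of which 1 is not reported here. Bcl2l2, Casp9 and Cycs were named for their role after their values were seen. Other settings were scaling, filters, pseudocount, fit design and leaving out libraries. Of these, scaling without mitochondrial genes alone and leaving out 3 libraries together (DOX replicate 1, control replicate 3 and TPTN replicate 1) were chosen after seeing the data. Plots used Python 3.11.15, pandas 2.3.3, numpy 2.4.6 and matplotlib 3.10.9.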

Additional observations from a re-analysis of the deposited data

How the results depend on the processing

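The count of members past the threshold in DOX against control was 0 in each setting tried (limma; 1 member at an unadjusted p under 0.05 as reported). In TPTN against DOX it was 1 except for 0 with no filter on low values and 0 with 3 libraries left out together. In TPTN against control it went from 1 to 0 with only the compared groups fitted, with the replicate block, with no filter, and with 3 libraries left out together, and ranged from 0 to 1 leaving out single libraries. Replicate numbers did not pair the libraries (correlations of same-numbered deviations -0.26 to 0.023, 0 of 9 libraries correlating best with their own number). With the replicate block the adjusted p of Bcl2l1 was 0.0207 against DOX and 0.0542 against control. Of other named genes it brought past the threshold Atf3 in DOX against control (adjusted p = 0.0471) and Bnip3 against DOX (0.0401) and control (0.0105), and lost Vdac2 (0.0986), Foxo3 (0.0793) and Cdkn1a against DOX (0.0531) and control (0.0681). With 3 libraries left out together, the limma calls of Phlda3 (adjusted p = 0.0740), Vdac2 (0.116) and Foxo3 (0.147) were lost. Against DOX and control, those of Fas (0.105 and 0.0707), Pim3 (0.107 and 0.146) and Cdkn1a (0.157 and 0.185) were lost too. No filter on low values lost all of these calls as well (adjusted p 0.101 to 0.193).

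Small changes that turned sign: in DOX against control, Bax was -0.0034 with median ratios, -0.013 with quantiles, -0.092 scaled without mitochondrial genes or copies, and -0.0055 to 0.14 leaving out a library. Bak1 was -0.0074 in the last of these scalings. Bbc3 was -0.013, -0.015 and -0.060 in the same order, -0.0025 without mitochondrial genes alone, and -0.073 to 0.074 leaving out a library. In TPTN against DOX, Mcl1 was 0.027 with quantiles and 0.020 without mitochondrial genes or copies, where Bax was 0.0094. Leaving out a library gave Bak1 -0.013 to 0.14 and Bbc3 -0.14 to 0.0039.

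Over all genes, limma called 279 and 50 genes higher and lower in DOX against control. Median ratios gave 110 and 63, quantiles 77 and 68, the sum without mitochondrial genes 222 and 63, and that without copies too 61 and 209, where the all-gene median moved from 0.044 to -0.071. In TPTN against DOX the split was 99 and 308, and in that order 149 and 280, 171 and 162, 187 and 170, and 542 and 129. In TPTN against control it was 42 and 48, and 90 and 55 without mitochondrial genes. Fitting only the compared groups gave 176 calls in place of 329 in DOX against control. The replicate block gave 170 there and 159 in place of 407 in TPTN against DOX. No filter left 2, 2 and 6 calls, and leaving out 3 libraries 1, 0 and 0 (2044, 2505 and 1608 at an unadjusted p under 0.05). Leaving out a library gave 2 to 316, 45 to 484 and 21 to 146. The cause was not tested. Count-based alternatives were not run, as the values are not counts, and without a depth the precision of Bcl2, Bid and Pmaip1 is unknown.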
